A study of Mus musculus with 12 samples.

Results

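Cytokines that niche cells use to signal to stem cells, and the receptors that read them, were followed through 7 genes in mouse spermatogonia. They were the chemokine Cxcl12 and its receptor Cxcr4, colony-stimulating factor 1 (Csf1) and its receptor Csf1r, leukaemia inhibitory factor (Lif), and the paired chains of the LIF receptor, Lifr and Il6st. Members were taken by gene name from the array annotation, and every probe of such a name was kept. This gave 14 probes of 7 genes, among 55681 probes of 36315 genes. A search by transcript identifier and older gene names added 0 probes.

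RNA was hybridised to Agilent 1-colour arrays, on which the brightness of a spot follows the amount of a transcript. All samples were from C57BL/6 mice aged 10 to 11 weeks, with 3 arrays per group. GFRα1+ spermatogonia were the EGFP+ cells of Gfra1-EGFP mice. In Ngn3-EGFP mice, in which the fluorescence outlasts Ngn3 expression, NGN3+ spermatogonia were the EGFP+ cells without KIT on their surface and KIT+ spermatogonia the EGFP+ cells with it. RNA of a sorted sample came from 10000 to 20000 cells of 1 mouse, or of 2 pooled mice for NGN3+ samples. Whole testes, for which no reporter is named, were represented by 500000 cells per sample. From each sample 25 ng of RNA was labelled.

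Levels are given on a log2 scale on which 0 is the 75th percentile of the array, so that a difference of 1 is a doubling. They can be compared between groups for a probe, but not between probes. The text calls a probe well above background where the scanner software marked it so. The lowest level so marked was −4.11 to −4.07 on GFRα1+ arrays and −5.14 to −4.84 on NGN3+ arrays. It was −5.07 to −4.46 on KIT+ arrays and −4.62 to −4.16 on whole testes. Equal dim levels could thus be marked in some groups and not in others. The level of Gfra1 declined from 1.65 ± 0.16 (SD, n = 3) in GFRα1+ cells through −1.22 ± 0.23 in NGN3+ cells to −3.38 ± 0.05 in KIT+ cells. Neurog3 was highest in NGN3+ cells, at 5.23 ± 0.43, and Kit in KIT+ cells, at 4.55 ± 0.11. The fractions were thus ordered as their names say. In NGN3+ and KIT+ samples, but far less in GFRα1+ samples, transcripts of spermatids were bright. The levels of 18 spermatid genes, summed on the linear scale where 1 is the 75th percentile, came to 38.2 to 75.2 on GFRα1+ arrays, 1387 to 1702 on NGN3+ arrays, 1679 to 2105 on KIT+ arrays and 6135 to 7469 on whole testes. Slide 1 held GFRα1+ replicates 1 and 2 and whole testes replicate 1, slide 2 held GFRα1+ replicate 3 and all NGN3+ and KIT+ arrays, and slide 3 held whole testes replicates 2 and 3. NGN3+ and KIT+ arrays therefore shared no slide with whole testes.

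CXCL12 is a secreted chemokine that holds blood and germ stem cells near the stroma that makes it, through the G protein-coupled receptor CXCR4. CSF1 is the main growth factor of macrophages and acts through the tyrosine kinase CSF1R; in the testis it is made by interstitial cells, Leydig cells and myoid cells among them. LIF is a cytokine of the interleukin 6 family that binds LIFR and the shared signalling chain gp130, the product of Il6st, and so activates JAK kinases and the transcription factor STAT3. In the testis these cytokines are known as signals that support undifferentiated spermatogonia.

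Read by the brightest probe of each gene, Cxcl12 alone of the 7 genes rose from GFRα1+ to NGN3+ cells, whereas Cxcr4, Csf1, Csf1r and Lifr fell. Il6st did not pass the test, and Lif was not well above background on all arrays of either group and was not tested. Thus 5 of 6 tested genes passed at an adjusted p under 0.05 (limma with Benjamini-Hochberg adjustment over all genes), where 56.4% of all 23792 tested genes did. The median difference of the 6 genes was −0.90, against −0.19 for all genes tested. With the median over a gene's probes, 3 of the falls were not called. These were Csf1 (−0.73, adjusted p = 0.0862), Csf1r (−0.0059, adjusted p = 0.973) and Lifr (−0.054, adjusted p = 0.753). From NGN3+ to KIT+ cells, Cxcl12, Cxcr4, Csf1 and Lifr fell, and 0 genes rose. These were 4 of 6 tested genes, where 34.5% of all 24111 tested genes passed, with a median difference of −1.09 against 0.05 for all genes. Between KIT+ and GFRα1+ cells all 6 tested genes were lower in KIT+ cells, where 66.1% of all genes passed, 26.6% as higher and 39.5% as lower. With slide as a block in the fit, Csf1r (−0.46, adjusted p = 0.197) and Il6st (−0.31, adjusted p = 0.0878) were not called in that comparison. The 3 comparisons share their arrays and are not independent. In RNA of sorted pools, fewer cells with a transcript and less of it per cell cannot be told apart.

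**Figure D1:**
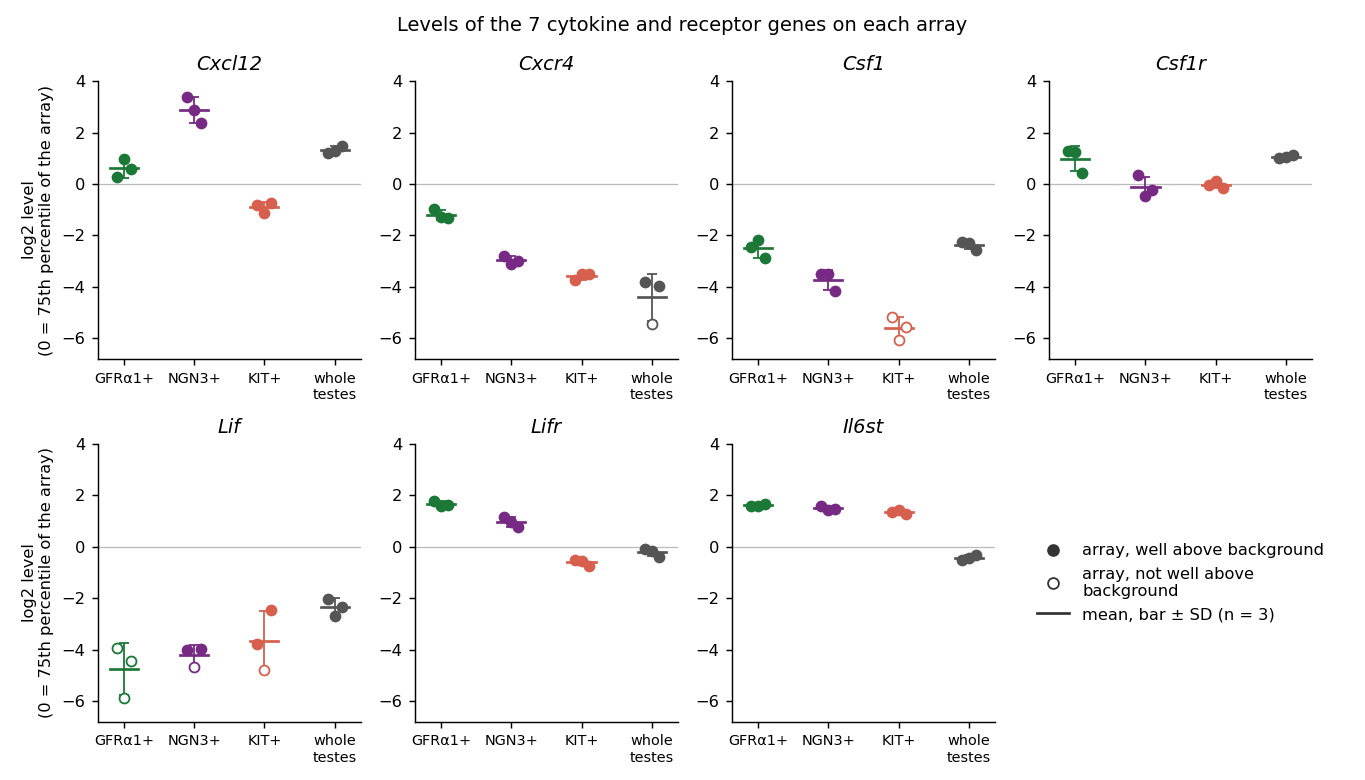
Log2 level (y axis, 0 is the 75th percentile of the array) of the 7 genes in the 3 sorted fractions and whole testes (x axis); points are arrays, open where the probe was not well above background, and lines and bars are the mean and SD of 3 arrays. Cxcl12 was highest in NGN3+ cells at 2.87 and lowest in KIT+ cells at −0.90, whereas Cxcr4, Csf1 and Lifr stepped down from GFRα1+ to NGN3+ to KIT+ cells.

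Cxcl12, the ligand of the chemokine pair, had the largest differences among the members at both steps. Its brighter probe, which lists 2 transcripts of the gene, read 0.27, 0.98 and 0.57 on the GFRα1+ arrays, 3.37, 2.89 and 2.35 on the NGN3+ arrays, −0.83, −1.14 and −0.74 on the KIT+ arrays, and 1.19, 1.27 and 1.49 on whole testes. Every NGN3+ array lay above every array of the other groups, and every KIT+ array below them. The rise from GFRα1+ to NGN3+ cells was 2.27 ± 0.27 (log2 difference ± SE), or 4.82-fold (adjusted p = 0.000191). The fall from NGN3+ to KIT+ cells was −3.77 ± 0.27, or 13.7-fold (adjusted p = 3.88e-05). The level in NGN3+ cells was also 2.93-fold above that in whole testes (adjusted p = 0.000147), a tissue that holds the stromal cells known to make this chemokine. Within slide 2, which held 1 GFRα1+ array, the rise was 2.31 (adjusted p = 0.00311), a fit in which that array is assumed to vary like the NGN3+ and KIT+ arrays.

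A second Cxcl12 probe reads transcript variant 1, which ends at another place than the transcripts of the first probe. Both lie on the plus strand of chromosome 6 in build mm9, the variant 1 probe at chr6:117125026-117125085 and the brighter probe at chr6:117131227-117131286. The 3′ parts of these probes, 30 of 60 bases each, are shown because they tell the transcripts apart, with the polyadenylation hexamer AATAAA in capitals where it occurs. The letters of the variant 1 probe hold this hexamer once, and those of the brighter probe do not.
Cxcl12 variant 1 probe: tatttacctgaAATAAAatctactagttgt
Cxcl12 brighter probe: tgctttcttattcttatttttaatatatga

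The variant 1 probe followed the same order of the sorted groups. It read −3.26, −2.50 and −3.01 in GFRα1+ cells, −1.40, −1.99 and −2.04 in NGN3+ cells, −4.81, −6.05 and −6.13 in KIT+ cells, and −2.62, −1.67 and −2.82 in whole testes. None of the 3 KIT+ values was well above background, and the NGN3+ and whole testes values overlapped. In a fit of every probe by itself, 55.2% of all probes passed from GFRα1+ to NGN3+ cells, 33.9% from NGN3+ to KIT+ cells and 65.3% between KIT+ and GFRα1+ cells, and against whole testes 87.3% in GFRα1+, 83.1% in NGN3+ and 84.5% in KIT+ cells. For this probe NGN3+ cells exceeded GFRα1+ cells by 1.11 ± 0.37 (adjusted p = 0.0302), and KIT+ cells were at least 7.51-fold below NGN3+ cells (adjusted p = 0.000141), taking the lowest signal called well above background as a bound. The difference between NGN3+ cells and whole testes was 0.56 for this probe, with an interval of −0.32 to 1.44 (adjusted p = 0.212), so the excess over whole testes was seen with the brighter probe only.

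Markers of stromal and other somatic cells moved in part with Cxcl12. At the first step 20.0% of all genes rose and 36.4% fell, and at the second 17.5% rose and 17.0% fell. Of 10 genes of fibroblasts and pericytes, 4 rose from GFRα1+ to NGN3+ cells (Dcn, Cspg4, Col1a1 and Col1a2) and Pdgfra fell, among 6 tested. Of 9 genes of peritubular myoid cells, 7 rose and 0 fell among 8 tested, with Acta2 at least 32.4-fold higher (adjusted p = 6.24e-05). From NGN3+ to KIT+ cells, 3 fibroblast and pericyte genes and 6 myoid genes fell, and 0 of either list rose. Of the endothelial genes, 3 rose and 5 fell at the first step among 14 tested, with a median of −0.29 against −0.19 for all genes. Against the direction of this median, Cldn5 (−4.03, −0.20 and −1.28 in GFRα1+, NGN3+ and KIT+ cells) and Vwf (−1.59, 0.33 and −1.04) were highest in NGN3+ cells among the sorted fractions. The endothelial sum was 35.9 to 37.7 in GFRα1+, 21.6 to 30.1 in NGN3+ and 26.5 to 31.3 in KIT+ cells. Of 15 Sertoli cell genes, 9 rose and 2 fell at the first step among 14 tested, and 0 rose and 2 fell at the second. The Sertoli sum was 74.4 to 83.7 in GFRα1+, 58.1 to 77.5 in NGN3+ and 64.6 to 76.0 in KIT+ cells. It was 396 to 462 in whole testes. The summed linear level of the fibroblast and pericyte list was 2.77 to 3.29 in GFRα1+ cells, 4.96 to 6.46 in NGN3+ cells, 1.62 to 1.91 in KIT+ cells and 9.26 to 11.6 in whole testes. That of the myoid list was 4.20 to 5.17, 17.4 to 31.0, 16.1 to 21.1 and 167 to 191, respectively. The fibroblast and pericyte sum and the myoid sum were lower in NGN3+ cells than in whole testes. The brighter Cxcl12 probe was higher in NGN3+ cells than in whole testes, and the variant 1 probe did not pass (0.56, adjusted p = 0.212). The defining pericyte marker Rgs5 was well above background on 2 of 3 NGN3+ arrays and 0 of 3 GFRα1+ and KIT+ arrays. The part of these markers in the Cxcl12 result was not tested.

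**Figure D2:**
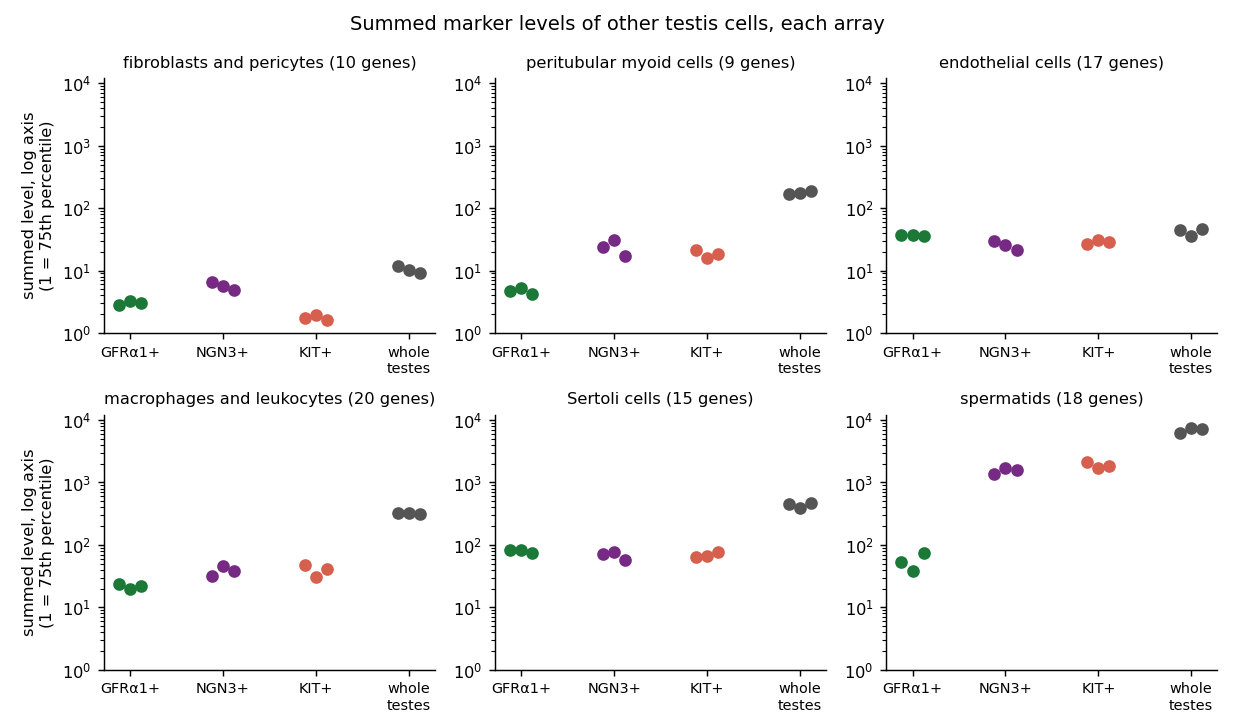
Summed linear level of the marker genes of other testis cells (y axis, logarithmic, 1 is the 75th percentile of an array) on each of 3 arrays per group (x axis). The fibroblast and pericyte sum was highest among sorted cells in NGN3+ cells (4.96 to 6.46), the macrophage and leukocyte sum stayed between 19.8 and 47.9 in sorted cells against 309 to 330 in whole testes, and the spermatid sum was far higher in NGN3+ and KIT+ cells than in GFRα1+ cells.

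Cxcr4, the receptor of CXCL12, was highest in GFRα1+ cells. Its single probe, on the minus strand at chr1:130485079-130485138 (mm9), read −0.98, −1.28 and −1.33 on GFRα1+ arrays, −2.80, −3.12 and −2.99 on NGN3+ arrays, −3.73, −3.50 and −3.52 on KIT+ arrays, and −3.80, −5.45 and −3.95 on whole testes. The ranges of the 4 groups did not overlap, and the lowest whole testes value was not well above background. Its level fell by 1.77 from GFRα1+ to NGN3+ cells (SE 0.14, 3.42-fold, adjusted p = 1.48e-05) and by a further 0.61 to KIT+ cells (SE 0.14, 1.53-fold, adjusted p = 0.00905). The second step was not called after another background correction (normexp; −0.16, adjusted p = 0.289) or when whole testes entered the fit, where the difference was the same −0.61 (adjusted p = 0.208). GFRα1+ cells exceeded whole testes at least 6.83-fold (adjusted p = 3.87e-06). Receptor and ligand thus ran in opposite directions from GFRα1+ to NGN3+ cells.

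Genes that act with CXCR4 were mixed. Of 22 genes of its axis, 3 rose and 8 fell from GFRα1+ to NGN3+ cells among 19 tested, where 20.0% of all genes rose and 36.4% fell, with a median of −0.25. Grk5 (−0.87 ± 0.10, adjusted p = 0.00013) and Grk2 (−0.88 ± 0.12, adjusted p = 0.000419), which encode kinases that switch off G protein-coupled receptors, fell, as did the G protein subunit Gnai3 (−0.74 ± 0.12, adjusted p = 0.0009). Cxcl14, a chemokine reported to bind CXCR4, was at least 5.81-fold lower (adjusted p = 0.000236). The other CXCL12 receptor, Ackr3, a scavenger that does not couple to G proteins, was at least 1.57-fold higher in NGN3+ cells (adjusted p = 0.0312). From NGN3+ to KIT+ cells, 7 of the 18 tested genes rose and 3 fell, where 17.5% of all genes rose and 17.0% fell. The G protein subunit Gnai1 rose (1.59 ± 0.15, adjusted p = 0.000114), and Rgs16, a brake on G protein signals, fell (−1.93 ± 0.14, adjusted p = 3.69e-05).

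Csf1 declined through the sorted fractions. Its main probe, spotted 10 times on the array and on the minus strand at chr3:107544333-107544392 (mm9), read −2.45, −2.17 and −2.88 in GFRα1+ cells, −3.51, −3.50 and −4.17 in NGN3+ cells, −5.18, −6.07 and −5.56 in KIT+ cells, and −2.24, −2.31 and −2.55 in whole testes. All 3 KIT+ values were not well above background, and the sorted groups did not overlap. From GFRα1+ to NGN3+ cells the level fell by 1.23 (SE 0.28, 2.34-fold, adjusted p = 0.00632), and KIT+ cells were at least 2.11-fold below NGN3+ cells (adjusted p = 0.00122). GFRα1+ cells and whole testes differed by −0.14, with an interval of −0.72 to 0.44 (adjusted p = 0.632). With the median over the Csf1 probes, which takes in the dim probes of variant 3, this difference was −1.54 (adjusted p = 0.000446), and the step from NGN3+ to KIT+ cells was −0.33 and not called (adjusted p = 0.484). The step from GFRα1+ to NGN3+ cells was −0.73 with that median and was not called either (adjusted p = 0.0862). Within slide 2, where the GFRα1+ array was the lowest of its group, the first step was −0.85 and was not called (adjusted p = 0.122). A pair of overlapping probes for transcript variant 3 was not well above background on any sorted array, and each was so on 1 of 3 whole testes arrays. The summed linear level of 7 Leydig cell genes was 6.06 to 10.8 in GFRα1+ cells, 2.23 to 3.51 in NGN3+ cells, 2.53 to 3.09 in KIT+ cells and 13.7 to 19.7 in whole testes, with 1 to 2 of the genes well above background on a sorted array. Of these Cyp17a1, an enzyme of androgen synthesis, fell at the first step (−1.75 ± 0.25, adjusted p = 0.000521). The part of Leydig cell RNA in the levels of Csf1 was not tested.

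Csf1r, which encodes the receptor of CSF1 on macrophages, gave different results with different probes. The brightest of its 3 probes, nearest the 3′ end, read 1.29, 1.24 and 0.43 in GFRα1+ cells, 0.33, −0.46 and −0.22 in NGN3+ cells, −0.04, 0.11 and −0.15 in KIT+ cells, and 0.99, 1.07 and 1.11 in whole testes. GFRα1+ replicate 3, the array on slide 2, was the lowest of its group and lay close to the NGN3+ range. The level fell by 1.10 from GFRα1+ to NGN3+ cells (SE 0.27, adjusted p = 0.00786), but within slide 2 the difference was −0.54 and was not called (adjusted p = 0.181). The fall from GFRα1+ to NGN3+ cells was not called by the methods' t-test either (adjusted p = 0.0760). KIT+ and NGN3+ cells differed by 0.09, with an interval of −0.52 to 0.70 (adjusted p = 0.833).

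The Csf1r probe nearest the 5′ end did not show the first step. It read −0.41, −0.23 and −0.65 in GFRα1+ cells, −0.28, −0.38 and −0.57 in NGN3+ cells, −0.87, −0.82 and −0.92 in KIT+ cells, and 0.81, 1.28 and 0.98 in whole testes. NGN3+ and GFRα1+ cells differed by 0.02 (interval −0.28 to 0.32, adjusted p = 0.899), and KIT+ cells lay 0.46 below NGN3+ cells (log2 difference −0.46 ± 0.13, adjusted p = 0.0262). Whole testes exceeded GFRα1+ cells 2.74-fold with this probe (adjusted p = 2.24e-06), whereas with the 3′ probe these groups differed by −0.07 (interval −0.61 to 0.46, adjusted p = 0.784). The median over the Csf1r probes gave −1.38 (adjusted p = 1.20e-06). The middle probe was well above background on 2 sorted arrays, both NGN3+, and on all 3 whole testes arrays, where it was at least 1.90-fold higher than in GFRα1+ cells (adjusted p = 0.000142). A fall of Csf1r between GFRα1+ and NGN3+ cells was thus read by 1 of 3 probes.

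Macrophage genes were detected in part in the sorted fractions. Of 20 genes of macrophages and leukocytes, 8 to 12 were well above background per sorted array and 17 on each whole testes array. From GFRα1+ to NGN3+ cells 3 rose and 4 fell among 10 tested, where 20.0% of all genes rose and 36.4% fell. Of the defining markers, Adgre1, which encodes a surface antigen used to stain macrophages, was well above background on 2 of 3 NGN3+ arrays, 1 of 3 KIT+ arrays and on 0 of 3 arrays of GFRα1+ cells. Itgam, Coro1a, Cd14, Fcer1g, Lcp1, C1qb and Aif1 were so on all 9 sorted arrays, with Itgam at 3.84, 3.48 and 3.31 in GFRα1+, NGN3+ and KIT+ cells. Ptprc, the leukocyte antigen CD45, was so on 0 of 3 GFRα1+ arrays but on every NGN3+ and KIT+ array, and C1qa on 1 NGN3+ and 2 KIT+ arrays. Tyrobp, Lyz2, Laptm5 and C1qc were so on 0 of the 9 sorted arrays and on all 3 whole testes arrays. Spi1, the master transcription factor of macrophages, was not well above background in any group. The mannose receptor Mrc1, which is also made by other cells, was well above background on all GFRα1+ arrays. It fell by 3.01 to NGN3+ cells (SE 0.26, adjusted p = 2.54e-05). The summed linear level of the whole list was 19.8 to 23.9 in GFRα1+, 32.3 to 45.4 in NGN3+ and 30.8 to 47.9 in KIT+ cells. The part of macrophage RNA in the levels of Csf1r was not tested.

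Other genes of the CSF system moved both ways. Of 17 genes, 2 rose and 5 fell from GFRα1+ to NGN3+ cells among 14 tested, where 20.0% of all genes rose and 36.4% fell, with a median of −0.10. Csf2ra, which encodes the binding chain of the GM-CSF receptor, fell (−0.99 ± 0.16, adjusted p = 0.000859), as did the adaptor Grb2 (−1.05 ± 0.18, adjusted p = 0.00144) and Inpp5d, the lipid phosphatase SHIP (−0.98 ± 0.21, adjusted p = 0.00424). Dok1, which docks to activated tyrosine kinases, rose (0.87 ± 0.18, adjusted p = 0.00359). From NGN3+ to KIT+ cells, 3 genes rose and 4 fell among 14 tested, where 17.5% of all genes rose and 17.0% fell. The syndecan Sdc1 rose (1.30 ± 0.11, adjusted p = 8.67e-05), and the phospholipase Plcg2 fell (−1.21 ± 0.15, adjusted p = 0.000439). Il34, the other known ligand of CSF1R, had levels of −3.54 in GFRα1+, −3.01 in NGN3+ and −4.37 in KIT+ cells; it did not pass at the first step (adjusted p = 0.187) and fell at the second (adjusted p = 0.0105).

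**Figure D3:**
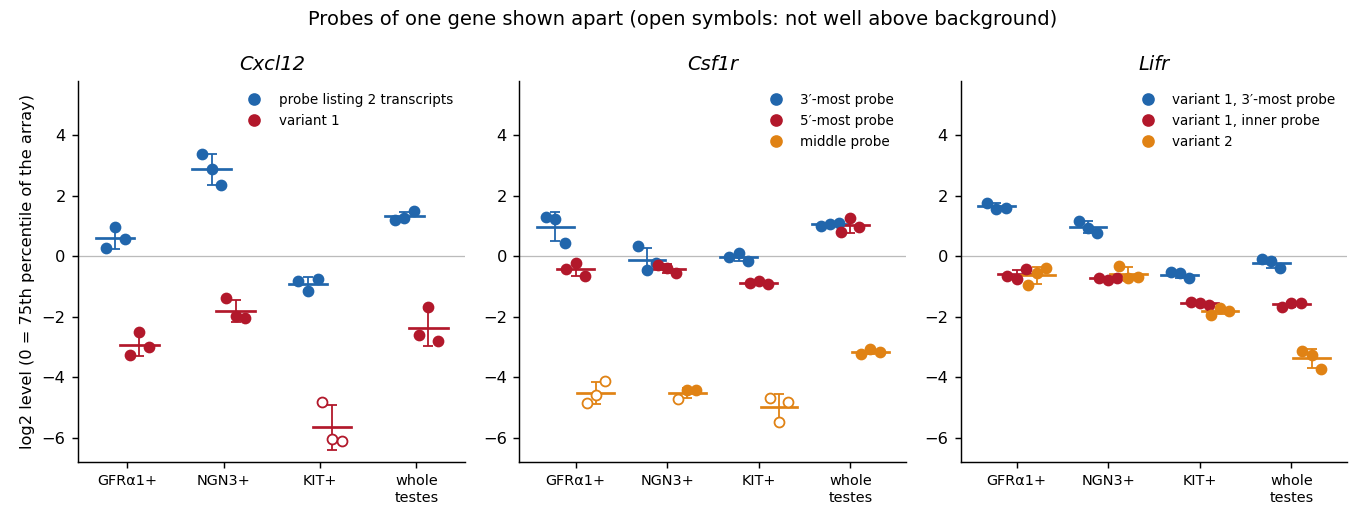
Log2 level (y axis, 0 is the 75th percentile of the array) of each probe of Cxcl12, Csf1r and Lifr in the 4 groups (x axis); points are arrays, open where not well above background, and lines and bars are the mean and SD of 3 arrays. Both Cxcl12 probes peak in NGN3+ cells among the sorted groups, while the first step of Csf1r (0.98 to −0.12) and of Lifr (1.65 to 0.96) appears with the 3′-most probe alone.

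Lif was dim in every sorted fraction. Its probe, on the plus strand at chr11:4172032-4172091 (mm9), read −3.95, −5.87 and −4.44 in GFRα1+ cells, −4.00, −4.68 and −3.96 in NGN3+ cells, −3.78, −4.80 and −2.45 in KIT+ cells, and −2.02, −2.68 and −2.33 in whole testes. It was well above background on 0 of 3 GFRα1+ arrays, 2 of 3 NGN3+ arrays, 2 of 3 KIT+ arrays and all whole testes arrays, and only KIT+ replicate 3 reached the whole testes range. GFRα1+ replicate 1, at −3.95, was not marked as well above background, whereas NGN3+ replicate 3, at −3.96, was. GFRα1+ cells lay at least 3.25-fold below whole testes (adjusted p = 0.00224). Within slide 1, with 2 arrays against 1, the difference was −2.89 and not called (adjusted p = 0.103). NGN3+ cells lay 3.65-fold below whole testes (adjusted p = 0.0115). KIT+ cells did not pass (difference −1.33 ± 0.58, adjusted p = 0.0516) and did so without KIT+ replicate 3 (−1.95, adjusted p = 0.00585).

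Lifr, the ligand-binding chain of the LIF receptor, was high in GFRα1+ cells. Its brightest probe, for variant 1 and nearest the 3′ end, read 1.78, 1.57 and 1.60 in GFRα1+ cells, 1.16, 0.95 and 0.76 in NGN3+ cells, −0.53, −0.56 and −0.73 in KIT+ cells, and −0.09, −0.16 and −0.40 in whole testes. The 4 groups did not overlap. The fall from GFRα1+ to NGN3+ cells was −0.69 ± 0.13 (1.62-fold, adjusted p = 0.00218) and that from NGN3+ to KIT+ cells −1.56 ± 0.13 (2.96-fold, adjusted p = 6.78e-05).

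The other Lifr probes read the second step and not the first. The inner variant 1 probe differed by −0.13 between NGN3+ and GFRα1+ cells (interval −0.38 to 0.11, adjusted p = 0.325) and fell by 0.83 at the second step (SE 0.11, adjusted p = 0.000649). The variant 2 probe, with −0.94, −0.55 and −0.39 in GFRα1+ cells and −0.33, −0.73 and −0.69 in NGN3+ cells, differed by 0.04 (interval −0.34 to 0.43, adjusted p = 0.837). It then fell to −1.93, −1.72 and −1.80 in KIT+ cells (−1.23 ± 0.17, adjusted p = 0.000798). The fall into KIT+ cells was thus common to all 3 probes. In whole testes the variant 2 probe read −3.14, −3.26 and −3.74, below every sorted array, so that even KIT+ cells exceeded whole testes 2.96-fold (adjusted p = 1.45e-05), whereas the 3′-most variant 1 probe was 1.31-fold lower in KIT+ cells than in whole testes (adjusted p = 0.0171).

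The 3 Lifr probes lie on the plus strand of chromosome 15 in mm9, at chr15:7135072-7135131 (variant 2), chr15:7141150-7141209 (variant 1, inner) and chr15:7147319-7147378 (variant 1, 3′-most). Their 3′ parts are printed because the first step depends on which of them is read. None holds AATAAA.
Lifr variant 2 probe: accagagaggggagtatccctgaagtctgt
Lifr variant 1 inner probe: ctttgtcacttcagtctgccatctcagtaa
Lifr variant 1 3′-most probe: caaatataaaactactatcgcttggctgtt

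Il6st, which encodes gp130, hardly moved among the sorted fractions and was the most evenly measured member. It read 1.60, 1.58 and 1.65 in GFRα1+ cells, 1.58, 1.42 and 1.47 in NGN3+ cells, 1.36, 1.42 and 1.27 in KIT+ cells, and −0.50, −0.46 and −0.33 in whole testes. Its probe lies on the plus strand at chr13:113296586-113296645 (mm9). NGN3+ cells differed from GFRα1+ cells by −0.12 (interval −0.34 to 0.09, adjusted p = 0.299) and KIT+ from NGN3+ cells by −0.14 (interval −0.36 to 0.07, adjusted p = 0.292). KIT+ cells were 1.20-fold below GFRα1+ cells (−0.26 ± 0.09, adjusted p = 0.034), but the call was lost within slide 2 (−0.31, adjusted p = 0.128), with the percentile taken over probes detected on all arrays (−0.13, adjusted p = 0.168), and when GFRα1+ replicate 1, 2 or 3 or KIT+ replicate 1 or 3 was left out (adjusted p from 0.0650 to 0.124). Every sorted group exceeded whole testes, GFRα1+ cells 4.11-fold (adjusted p = 2.26e-09), NGN3+ cells 3.78-fold (adjusted p = 1.21e-08) and KIT+ cells 3.43-fold (adjusted p = 1.72e-08).

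**Figure D4:**
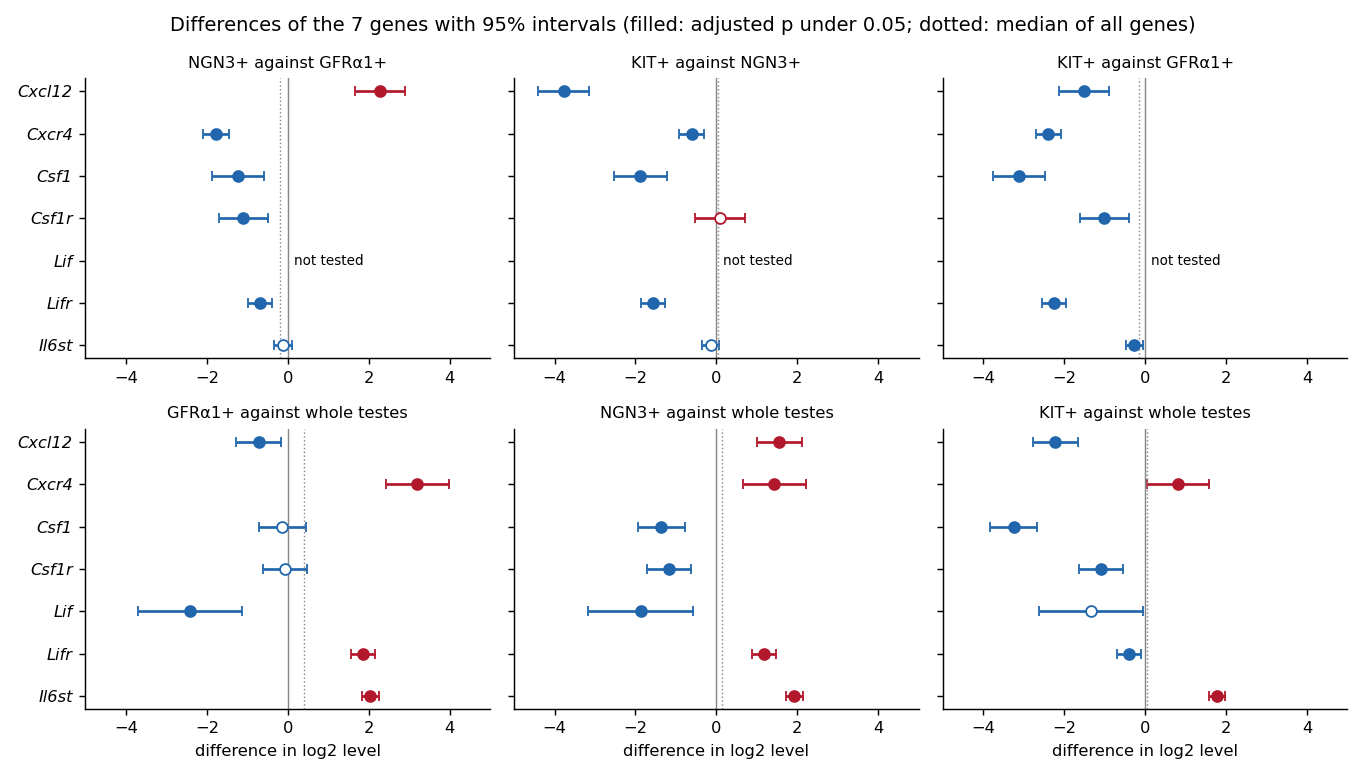
Difference in log2 level (x axis) of the 7 genes (y axis) in 6 comparisons, with 95% intervals; filled points passed an adjusted p under 0.05 and the dotted line is the median of all genes tested. At the first step Cxcl12 (2.27) stands on the other side of 0 from Cxcr4, Csf1, Csf1r and Lifr, and against whole testes Il6st lies between 1.78 and 2.04 in all sorted groups.

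Other members of the interleukin 6 family were split. Of 18 genes, 17 were on the array, and 3 rose and 4 fell from GFRα1+ to NGN3+ cells among 13 tested. Of all genes 20.0% rose and 36.4% fell, and the median was −0.18 for the list against −0.19 for all genes. Clcf1, a ligand of the CNTF receptor that signals through LIFR and gp130, fell at both steps (−1.66 ± 0.17, adjusted p = 8.31e-05; −2.08 ± 0.17, adjusted p = 6.92e-05). Il6ra, the receptor of IL6, had levels of 1.25 in GFRα1+, 1.92 in NGN3+ and 2.56 in KIT+ cells and rose at both steps (0.67 ± 0.10, adjusted p = 0.000757; 0.64 ± 0.10, adjusted p = 0.00161). Osmr, the receptor chain that pairs with gp130 for oncostatin M, did not pass at the first step (adjusted p = 0.254) and was at least 5.85-fold lower in KIT+ than in NGN3+ cells (adjusted p = 0.000701). The ligands Il6 and Osm were not well above background on any array, except for Osm on 1 KIT+ array.

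Il31 and Il11, cytokines of the same family, rose with the spermatid genes. Il31 was not well above background in GFRα1+ cells and was at least 40.7-fold higher in NGN3+ cells (adjusted p = 4.10e-06). Its levels were 1.31 ± 0.50 there, 1.77 ± 0.40 in KIT+ cells and 5.31 ± 0.15 in whole testes. Il11 exceeded its level in GFRα1+ cells at least 2.81-fold in NGN3+ cells (adjusted p = 3.80e-05) and stood at 0.65 in whole testes. All 18 spermatid genes rose at the same step, where 20.0% of all genes did, with a median of 5.48. Their part in the differences of Il31 and Il11 was not tested.

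Among genes of the JAK and STAT families and their regulators as a whole, not those of LIFR and gp130 alone, most called changes from GFRα1+ to NGN3+ cells were falls. Of 26 genes of the JAK, STAT, SOCS and PIAS families and their phosphatases, 2 rose and 14 fell among 25 tested, where 20.0% of all genes rose and 36.4% fell, and the median was −0.55 against −0.19 for all genes. With the percentile taken over probes detected on all arrays, which moved the median of all genes from −0.19 to −0.01, 5 of these genes rose and 12 fell, and of all genes 5942 rose and 5935 fell, against 4768 and 8657 on the scale used here. The 7 members kept 1 rise and 4 falls on that scale. Socs3, the feedback inhibitor that STAT3 induces, fell from 2.07 ± 0.08 in GFRα1+ cells to 0.11 ± 0.21 in NGN3+ cells and −1.45 ± 0.03 in KIT+ cells, with differences of −1.96 ± 0.12 (adjusted p = 4.26e-06) and −1.56 ± 0.12 (adjusted p = 5.03e-05). It stood at −3.67 ± 0.31 in whole testes.

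The transcription factors of this family followed in part. Stat3 fell from 4.01 ± 0.08 in GFRα1+ cells to 3.31 ± 0.26 in NGN3+ cells and 2.14 ± 0.15 in KIT+ cells, the second step being −1.17 ± 0.15 (adjusted p = 0.000484). Stat5a (−0.87 ± 0.13, adjusted p = 0.000657) and Socs5 (−1.21 ± 0.17, adjusted p = 0.000489) fell at the first step. Stat4, a STAT known from lymphocytes and from spermatids, rose by 5.06 (SE 0.30, adjusted p = 3.78e-06), to 2.46 ± 0.42 in NGN3+ cells, and was brightest in whole testes at 6.25 ± 0.29. From NGN3+ to KIT+ cells 5 genes rose, among them Socs1, Socs4 and Socs6, and 6 fell, where 17.5% of all genes rose and 17.0% fell.

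**Figure D5:**
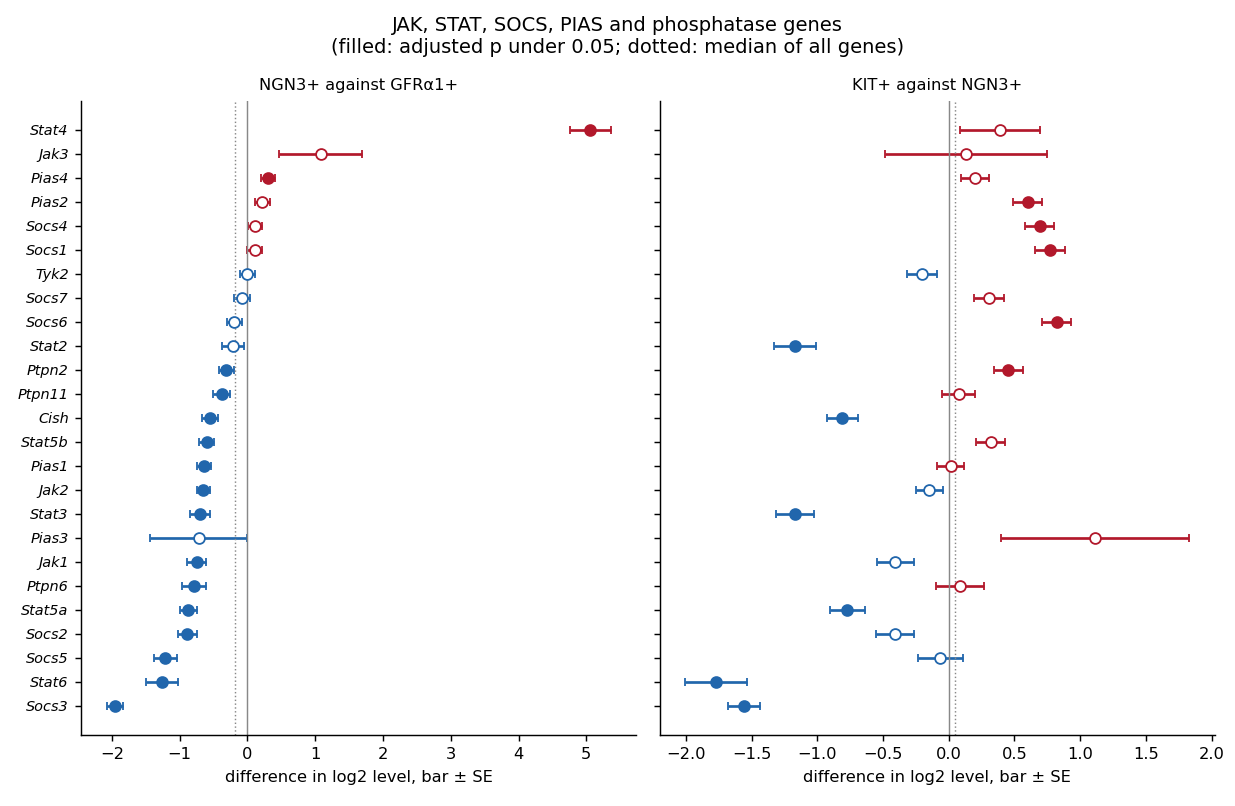
Difference in log2 level (x axis, bars are SE) of 25 tested JAK, STAT, SOCS, PIAS and phosphatase genes (y axis) from GFRα1+ to NGN3+ cells (left) and from NGN3+ to KIT+ cells (right); filled points passed an adjusted p under 0.05 and the dotted line is the median of all genes. At the first step 14 genes fell and 2 rose, Socs3 falling most (−1.96) and Stat4 rising most (5.06), while at the second 6 fell and 5 rose.

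Whole testes contain the somatic cells around the germ cells, and Il6st and Cxcr4 were higher than there in every sorted fraction. In GFRα1+ cells Cxcr4, Lifr and Il6st were higher and Cxcl12 and Lif lower, 5 of 7 genes, where 87.5% of all genes passed, 49.9% as higher and 37.5% as lower. In NGN3+ cells Cxcr4, Lifr, Il6st and Cxcl12 were higher and Csf1, Csf1r and Lif lower, 7 of 7 genes against 83.7% of all genes, 44.1% higher and 39.6% lower. In KIT+ cells Cxcr4 and Il6st were higher and Cxcl12, Csf1, Csf1r and Lifr lower, 6 of 7 genes against 84.9%, 43.3% higher and 41.6% lower. Lifr exceeded whole testes 3.64-fold in GFRα1+ cells (adjusted p = 8.49e-08) and 2.25-fold in NGN3+ cells (adjusted p = 7.74e-06). The call of Cxcl12 in GFRα1+ cells (−0.72 ± 0.25, adjusted p = 0.019) was lost without GFRα1+ replicate 1 (adjusted p = 0.0789) and without whole testes replicate 3 (adjusted p = 0.0635). That of Cxcr4 in KIT+ cells, at least 1.31-fold higher (adjusted p = 0.0473), was lost without any 1 of the KIT+ arrays or without whole testes replicate 2, the last giving a difference of 0.29 (adjusted p = 0.102). The call of Lifr in KIT+ cells was lost without KIT+ replicate 3 (adjusted p = 0.0685) or whole testes replicate 1 (adjusted p = 0.0598). It was made with the 3′-most probe. The variant 2 probe was instead 2.96-fold higher in KIT+ cells (adjusted p = 1.45e-05), and the inner probe differed by 0.025 (adjusted p = 0.832). With slide as a block, 3 genes remained in NGN3+ cells (Cxcl12, Il6st and Lifr) and 3 in KIT+ cells (Il6st, Cxcl12 and Csf1). These groups shared no slide with whole testes, so that fit linked them only through GFRα1+ arrays. It rested on GFRα1+ replicate 3 on slide 2 and whole testes replicate 1 on slide 1, and is thus a weak adjustment. The differences no longer called in NGN3+ cells were −2.66 for Lif, 1.03 for Cxcr4, −0.93 for Csf1 and −0.27 for Csf1r. The call of Cxcr4 in NGN3+ cells was also lost with normexp (0.23, adjusted p = 0.0630) and by the methods' t-test (1.43, adjusted p = 0.0673).

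Promoters are shown for Cxcr4, Csf1 and Lifr, whose brightest probes fell at both steps, and for Cxcl12, which rose and fell. The windows are the 150 bases before the RefSeq start site in GRCm38.p6, on the gene's strand, and 6 members had an entry that was read. In capitals are matches on either strand to GGGCGG (GC box), TTCNNNGAA (the palindrome bound by STAT proteins) and TATAAA. Of the 32851 promoter windows of this length in the table, 28.6% held GGGCGG, 4.1% TTCNNNGAA and 7.6% TATAAA.
Cxcr4, minus strand, chr1:128592300-128592449: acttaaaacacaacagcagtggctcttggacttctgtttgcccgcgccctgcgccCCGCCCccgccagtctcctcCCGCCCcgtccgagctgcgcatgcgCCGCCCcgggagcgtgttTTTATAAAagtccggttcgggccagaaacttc
Csf1, minus strand, chr3:107760470-107760619: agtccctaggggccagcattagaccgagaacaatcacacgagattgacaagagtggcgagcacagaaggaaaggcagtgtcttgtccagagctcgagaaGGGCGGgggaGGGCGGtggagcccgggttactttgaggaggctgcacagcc
Lifr, upstream start site, plus strand, chr15:7129422-7129571: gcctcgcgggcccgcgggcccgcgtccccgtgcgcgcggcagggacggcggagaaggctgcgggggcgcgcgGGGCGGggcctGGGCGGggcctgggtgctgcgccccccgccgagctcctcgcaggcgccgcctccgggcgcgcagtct
Lifr, downstream start site, plus strand, chr15:7140392-7140541: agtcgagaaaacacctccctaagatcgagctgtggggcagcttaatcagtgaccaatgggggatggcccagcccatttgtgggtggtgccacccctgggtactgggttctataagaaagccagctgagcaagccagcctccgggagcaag
Cxcl12, plus strand, chr6:117168385-117168534: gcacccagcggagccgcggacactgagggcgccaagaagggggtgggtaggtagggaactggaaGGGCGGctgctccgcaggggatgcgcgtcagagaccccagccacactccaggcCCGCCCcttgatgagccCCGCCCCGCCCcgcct

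GGGCGG occurred 3 times in the Cxcr4 window, 2 times in those of Csf1 and the upstream Lifr start, and 4 times in that of Cxcl12, and 0 times in that of the downstream Lifr start. TATAAA occurred in the Cxcr4 window alone among these, as 2 matches that overlap on opposite strands, beginning 32 and 30 bases before the start site. The STAT palindrome occurred in none of these windows, nor in those of Lif and Il6st. The upstream Lifr window was 86.0% G and C and the downstream one 57.3%. A match describes these letters and does not show binding, and the table does not tell which Lifr variant begins at which start.

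For each gene, the 3 genes whose levels ran most alike over the 12 arrays were sought among 18438 genes, by the root mean square (RMS) difference of log2 levels after each gene's mean was subtracted. Closest to Il6st were Pole, the catalytic subunit of DNA polymerase epsilon (RMS difference 0.068), Usp40 (0.0738) and Upf1 (0.087). Closest to Lifr were Igbp1 (0.117), Lclat1 (0.129) and the T-box factor Tbx3 (0.141), and closest to Csf1r, with its 3′ probe, Aldh3a1 (0.144), Car4 (0.173) and Gm6729 (0.177). The matches were looser for the other members. Cxcr4 ran with Gpc4, a cell-surface proteoglycan (0.275), Nkap (0.314) and the immediate early gene Ier2 (0.334), and Cxcl12 with Tmem63c (0.265), Tmprss5 (0.402) and Cd34 (0.453), the sialomucin known from blood stem and vascular cells. Csf1 ran with Sspn (0.312), Manba (0.36) and Plpp3 (0.38). Lif, mostly near background, was closest to Tm4sf19 (0.418), Hrh3 (0.525) and Lncbate1 (0.536). These are descriptions over 12 arrays of 4 groups, which share their group differences.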

How the data were processed

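RNA of 12 samples (3 for each of 3 sorted fractions and for whole testes) was hybridised to Agilent 1-colour arrays. The deposited scanner files give spot intensity after background subtraction by Agilent Feature Extraction 10.7.1.1 (slide 2) or 10.7.3.1 (slides 1 and 3), and probe positions in mm9, per the file headers. The authors' deposited log2 table held the same values scaled to the 75th percentile, within 0.01, and served as an alternative. Here outlier spots (103 to 161 per array, with 0 saturated) were left out, spots of a probe were averaged, log2 intensity was taken and the 75th percentile of each array subtracted. Between 50.1% and 50.8% of probes on GFRα1+ arrays and 54.8% to 65.1% on the others were well above background, and this and the number of arrays limit the precision.

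Probes were named through RefSeq by accession (26413), symbol (3859) or synonym (735), and otherwise kept the name in the files (24674). A gene was read by its brightest probe, kept for a comparison if detected on every array of either group, and all probes of the members are given. Pairs of groups were compared with limma 3.58.1 in R 4.3.3 with Benjamini-Hochberg adjustment over all genes, at a threshold of 0.05 and with 95% intervals. Where a group was not well above background, the fold is a bound against the lowest signal called so. A list is described by its counts, its median and the share of all genes called, and up to 4 genes with the smallest adjusted p at the first step and 2 at the second were named. Further list and marker genes, such as Ackr3, Il34, Il6ra, Osmr and Mrc1, were chosen after their values were seen. A gene that this rule would name is not reported here. The members and the gene lists were chosen with earlier results of these data known. The scripts were tested on simulated data. P-values measure the spread between RNA samples, which within each sorted fraction came from different mice. Whether fractions shared mice, and how many mice gave each whole testes sample, is not known here. Alternatives were the scaling, background correction, filters, probe choice, tests, slide and replicate blocks, and leaving out each array in turn. The exon or untranslated region in which a probe lies was not determined here. No sequence or position is given for Csf1r.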

Additional observations from a re-analysis of the deposited data

How the results depend on the processing

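Of the differences of single members under settings other than leaving out an array, 588 kept direction and side of the threshold, 37 kept direction and lost the call, 8 gained it and 7 reversed. The cause of these changes was not tested. The number of members called from GFRα1+ to NGN3+ cells was 2 with the median over a gene's probes, and 3 with slide as a block or within slide 2. That between GFRα1+ cells and whole testes was 3 with a strict filter and 3 within slide 1, and with slide as a block it was 3 for NGN3+ and 3 for KIT+ cells against whole testes. Leaving out 1 array in turn gave 5 to 5 members from GFRα1+ to NGN3+ cells, 4 to 4 from NGN3+ to KIT+, 5 to 6 for KIT+ against GFRα1+, and against whole testes 4 to 5 for GFRα1+, 7 to 7 for NGN3+ and 5 to 6 for KIT+ cells. Differences that changed sign were Il6st from GFRα1+ to NGN3+ cells (0.060, percentile over detected probes), Csf1r from NGN3+ to KIT+ cells (−0.43, adjusted p = 0.0345, median over probes; −0.083 to 0.31 when 1 array was left out, lowest without NGN3+ replicate 2), and Lifr in KIT+ cells against whole testes (0.025, median over probes). Between GFRα1+ cells and whole testes, Csf1 turned to 0.064 (quantile normalization) and 0.050 (normexp) and ran from −0.30 to 0.051 when 1 array was left out, and Csf1r turned to 0.27 (slide as a block, or within slide 1) and ran from −0.23 to 0.21, both highest without GFRα1+ replicate 3. Of the counts of pathway lists, 194 stayed within 1.5 times and 10 moved, all of chemokine lists. At the first step the ligands, 4 here, were 13 with no filter on dim probes, 2 with quantile normalization, the methods' t-test, slide as a random block or within slide 2, and 1 with slide as a block; the receptors, 4 here, were 1 with the strict filter and 2 with slide as a block. At the second step the receptors, 1 here, were 2 with no filter and 0 by the methods' t-test.

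Same-numbered arrays of different groups did not run closer than other-numbered ones. Deviations of same-numbered arrays correlated from −0.55 to 0.26 over 18 pairs. With the replicate block, 5, 4, 5, 5, 7 and 7 members were called (NGN3+ against GFRα1+, KIT+ against NGN3+, KIT+ against GFRα1+, then GFRα1+, NGN3+ and KIT+ against whole testes). It changed the call of Il6st in KIT+ against GFRα1+ cells (−0.26, adjusted p = 0.0789) and of Lif in KIT+ cells against whole testes (−1.33, adjusted p = 0.00926).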

Other observations

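Chemokines and their receptors other than the CXCL12 pair were mostly dim in the sorted fractions. Of 20 chemokine receptors, 6 were tested between NGN3+ and GFRα1+ cells, and 3 rose and 1 fell. Of all genes tested, 20.0% rose and 36.4% fell at this step. Ccr6, known from B cells and some T cells, was not well above background in GFRα1+ cells and was at least 4.82-fold higher in NGN3+ cells (adjusted p = 9.69e-05), with a level of 1.95 ± 0.02 (SD, n = 3) in whole testes. Ccr7, which guides lymphocytes to lymph nodes, was at least 2.77-fold higher (adjusted p = 1.18e-05), and stood at 0.51 ± 0.32 in whole testes. Cxcr5 rose by 1.33 (adjusted p = 0.00977), with no bound above 1-fold, since GFRα1+ cells were not well above background. Ackr2, a chemokine scavenger, fell by 0.89 (SE 0.25, adjusted p = 0.0147) and then rose by 0.97 in KIT+ cells (SE 0.25, adjusted p = 0.0157). The sum of the spermatid genes was also higher in NGN3+ than in GFRα1+ cells, and its part in the levels of Ccr6 and Ccr7 was not tested.

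Of 29 chemokine ligands, 8 were tested at the first step, and Ccl5 and Ccl19 rose while Cxcl10 and Cxcl11 fell. Among all genes the shares were 20.0% and 36.4%, respectively. Ccl5 rose by 0.65 ± 0.13 (SE, adjusted p = 0.0028), and Ccl19 was at least 1.60-fold higher (adjusted p = 0.0311). Cxcl11 fell by 0.65 (SE 0.14, adjusted p = 0.00372). Its probe was bright in every group, at 9.01 in GFRα1+, 8.35 in NGN3+ and 8.39 in KIT+ cells and 8.81 in whole testes. Cxcl10, a ligand of CXCR3 like Cxcl11, fell by 1.69 (SE 0.54, adjusted p = 0.0254), with levels in GFRα1+ cells that varied with an SD of 1.10. From NGN3+ to KIT+ cells, 9 ligands were tested, where 17.5% of all genes rose and 17.0% fell. Cxcl16, a membrane-bound ligand of CXCR6, was at least 7.44-fold lower (adjusted p = 2.13e-05), Ccl25 fell by 0.91 (SE 0.11, adjusted p = 0.000455) and Ccl5 rose by 0.44 (SE 0.13, adjusted p = 0.0285).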
